A study of Mus musculus with 6 samples.

Results

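The insulin-like growth factor (IGF) axis was examined in mouse medulloblastoma, a tumour of the cerebellum, with and without Crebbp, which encodes a histone acetyltransferase and coactivator. The members were 10 listed genes, namely the ligands Igf1 and Igf2, the receptors Igf1r, Igf2r and Insr, the adaptor Irs1 and the binding proteins Igfbp2, Igfbp3, Igfbp4 and Igfbp5. All 10 were measured, among 22180 genes in all, and for each gene the array feature with the highest mean over the 6 arrays was used among features that carry exactly 1 gene symbol. Levels are log2 values from Affymetrix whole-transcript arrays, 1 array per tumour, so a difference of 1 is a doubling.

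Both groups carried an activated Smoothened allele, SmoM2, switched on by a Cre recombinase that needs tamoxifen and is driven by Math1 (Atoh1), which acts in granule neuron progenitors and leaves other cells of the tumour unrecombined. The 3 wild type tumours had the genotype Math1Cre::SmoM2Fl/+ and the 3 knockout tumours Math1Cre::CrebbpFl/FlSmoM2Fl/+. All animals were given 1 mg tamoxifen at postnatal day 5, and tumour tissue was taken at postnatal day 60 from animals with clear tumour growth. Crebbp itself measured 11.80, 11.76 and 11.70 on the log2 scale in wild type and 11.24, 11.34 and 11.20 in knockout tumours, a log2 difference of -0.50 (SE 0.09) that did not pass the threshold (limma adjusted p = 0.0948). Which exons were deleted is not stated there, so the feature may read parts outside the deletion. Nor is it stated whether tumours of a group came from separate litters, and the p-values cover only the variation among these 6 samples.

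IGF1 and IGF2 are secreted growth factors that signal through the receptor tyrosine kinase IGF1R and the insulin receptor, whose adaptors lead to PI3K, AKT and mTOR. IGF2R carries no kinase and takes IGF2 up for degradation in lysosomes, and the IGF binding proteins hold the ligands in the extracellular fluid and so limit or prolong their action. In the cerebellum IGF signalling supports granule neuron progenitors, and in mouse models Igf2 is needed for tumours driven by Sonic hedgehog. Igf2, Igf2r and Grb10, which encodes an adaptor that restrains the IGF1 and insulin receptors, are imprinted, so that in most tissues they are read mainly from 1 parental copy.

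All 3 wild type arrays had low Xist (log2 levels of 5.13 to 5.74) and all 3 knockout arrays high Xist (12.26 to 12.45), and Uty, Kdm5d and Eif2s3y, which lie on the Y chromosome, had the opposite pattern. Sex and Crebbp genotype therefore cannot be told apart in any comparison given here. The 12 values of these genes in the group that lacks them had a median of 5.11 and a highest value of 5.74, which served as the level of an absent transcript. Every member lay above it in every tumour, with values from 7.37 to 11.07. The 13 markers of the granule lineage, among them Atoh1, Gli1, Barhl1 and Zic1, also all lay above it. Mean levels over these markers were 10.98 to 11.26 in wild type and 10.70 to 10.87 in knockout tumours.

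Igf2 stands on chromosome 7, with Ins2 as its protein-coding neighbour on the far side from Mrpl23 and the microRNA gene Mir483 inside its span. RefSeq's table for GRCm38.p6 gives 4 transcription starts for Igf2 and 2 for Grb10, and the array feature of each gene does not separate the starts. The 250 bases before starts 3 and 4 of Igf2 in that table and before both Grb10 starts are shown, since these 2 genes of the axis had the largest differences between the groups. Starts 1 and 2 of Igf2, whose windows held no match to the motifs searched, are not shown. Capitals mark matches on either strand to TGACG (the short site of CREB, the factor that CREBBP binds, which also lies within the full site TGACGTCA), GGGCGG (the GC box, whose adjoining matches run together) or CCAAT.
Igf2 start 3, chr7:142658805-142659054, minus strand: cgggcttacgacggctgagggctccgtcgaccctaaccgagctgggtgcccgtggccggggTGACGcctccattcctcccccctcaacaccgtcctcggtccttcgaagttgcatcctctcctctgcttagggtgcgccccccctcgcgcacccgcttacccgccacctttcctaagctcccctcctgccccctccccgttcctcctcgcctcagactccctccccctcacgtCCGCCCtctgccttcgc
Igf2 start 4, chr7:142657497-142657746, minus strand: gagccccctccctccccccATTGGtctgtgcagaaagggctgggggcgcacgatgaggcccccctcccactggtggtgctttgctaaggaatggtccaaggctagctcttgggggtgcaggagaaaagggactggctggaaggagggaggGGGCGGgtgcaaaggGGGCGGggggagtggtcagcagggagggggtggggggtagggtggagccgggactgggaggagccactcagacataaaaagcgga
Grb10 start 1, chr11:12037421-12037670, minus strand: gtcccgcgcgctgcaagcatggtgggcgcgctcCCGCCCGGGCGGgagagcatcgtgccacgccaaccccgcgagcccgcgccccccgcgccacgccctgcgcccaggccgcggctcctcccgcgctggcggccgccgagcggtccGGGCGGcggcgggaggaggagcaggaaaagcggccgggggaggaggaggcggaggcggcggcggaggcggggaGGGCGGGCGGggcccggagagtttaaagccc
Grb10 start 2, chr11:12027972-12028221, minus strand: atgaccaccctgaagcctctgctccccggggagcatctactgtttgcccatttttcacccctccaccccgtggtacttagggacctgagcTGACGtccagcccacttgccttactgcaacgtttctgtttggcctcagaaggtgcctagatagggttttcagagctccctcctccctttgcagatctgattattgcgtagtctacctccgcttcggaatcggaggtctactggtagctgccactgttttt

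The same 250-base windows were found for 9 of the 10 members, 13 windows in all. TGACG occurred in 3 of these 13 windows, those of Igf2, Igf2r and Irs1, against 17.8% of all 32851 promoter windows. GGGCGG occurred in 6 of the 13, against 32.7% of all windows. The full CREB site TGACGTCA occurred in 0 of 13 and in 1.55% of all windows, and GGGGCCCC, a site of the imprinted zinc finger factor PLAGL1, in 0 of 13 and in 0.889% of all. TATAAA was present in 1 window, that of Igfbp4, where 12.4% of all windows held it, and CCAAT in 2 windows, those of Igf1 and Igf2, where 33.8% of all held it. The windows of Igf2 starts 1 and 2 held none of these 6 motifs.

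The growth factor Igf2 was the member with the largest difference. Its log2 level was 8.75, 8.41 and 8.56 in the 3 wild type tumours and 10.59, 9.81 and 9.50 in the 3 knockout tumours. All knockout values lay above all wild type values, with a gap of 0.74 between the closest values of the groups, and the knockout tumours also spread more widely, over a range of 1.09 against 0.35. The means were 8.57 ± 0.17 and 9.96 ± 0.56 (SD, n = 3 each), a log2 difference of 1.39 (SE 0.26, 95% interval 0.79 to 1.98), or 2.62-fold (1.73 to 3.96). Igf2 ranked 52 of 22180 genes by the size of its difference and 146 by its p-value. It did not pass the threshold of 0.05 over all genes (limma adjusted p = 0.107), and its exact permutation p (two-sided) was 0.1, as low as 3 arrays in each group can reach.

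Igf1, the other ligand, measured 7.75, 7.71 and 7.37 in wild type and 7.70, 7.79 and 7.54 in knockout tumours. The groups overlapped, and the log2 difference was 0.07 (SE 0.13, 95% interval -0.23 to 0.37, limma adjusted p = 0.862).

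**Figure D1:**
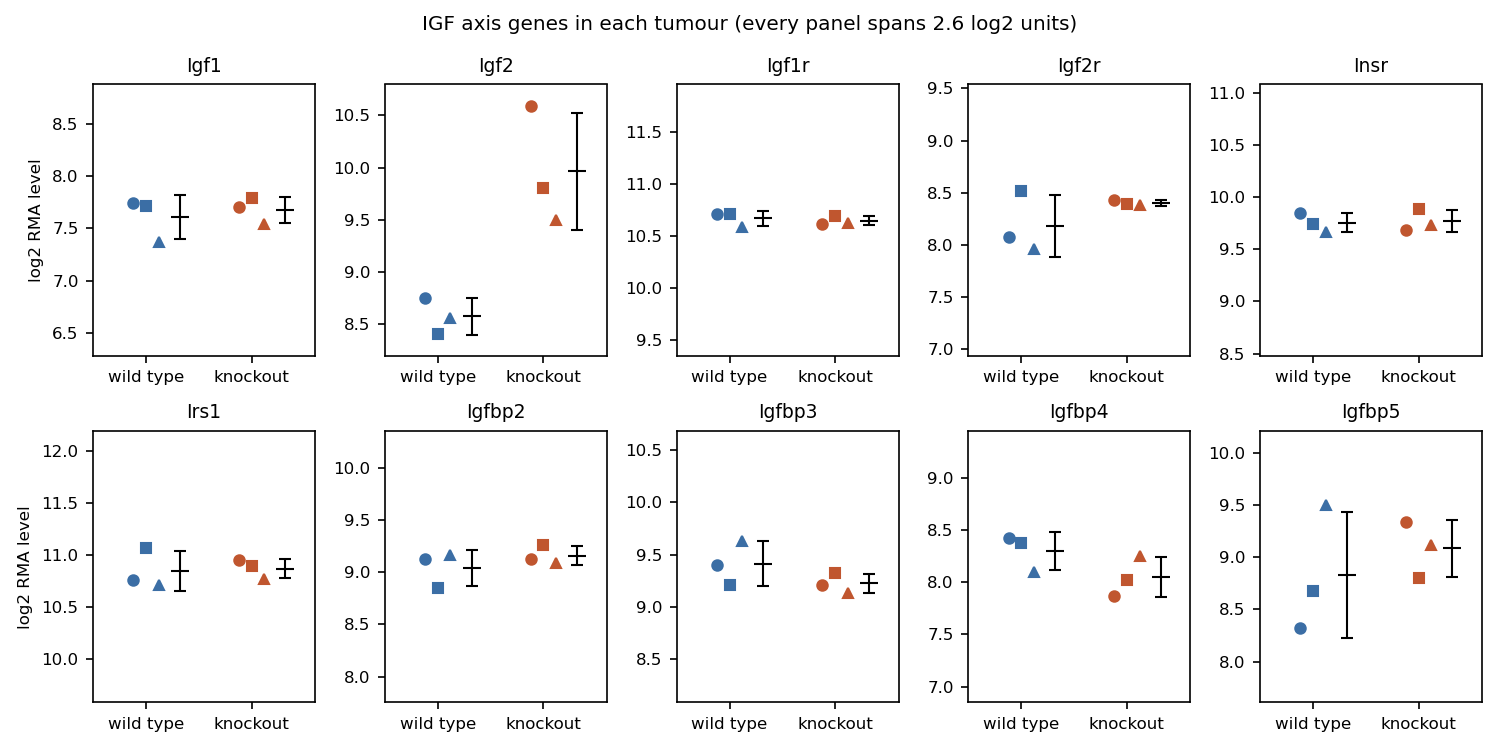
Log2 expression level (y axis) of the 10 IGF axis genes in wild type (blue) and knockout (orange) tumours, 1 symbol per tumour, with circles, squares and triangles for replicates 1, 2 and 3 and black bars for mean ± SD. All panels span the same log2 range, and Igf2 is the panel in which the groups do not overlap, with knockout values from 9.50 to 10.59 above wild type values from 8.41 to 8.75.

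The receptors differed little between the groups. Igf1r, the signalling receptor for both ligands, had levels of 10.71, 10.71 and 10.59 in wild type and 10.62, 10.69 and 10.62 in knockout tumours. These values overlapped, and the pooled SD within groups, 0.06, was smaller than the median over all genes of 0.14, which gave a narrow interval around the log2 difference of -0.03 (95% interval -0.23 to 0.18). Insr, the insulin receptor, had levels of 9.85, 9.75 and 9.67 in wild type and 9.69, 9.89 and 9.73 in knockout tumours, with a log2 difference of 0.01 (95% interval -0.21 to 0.24). The upper bounds of these intervals, 0.18 and 0.24, lay below the lower bound of 0.79 for Igf2. Igf2 was set beside them as the member with the largest difference, and the contrast between these genes was not tested itself.

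Igf2r, the receptor that clears IGF2, had levels of 8.08, 8.52 and 7.96 in wild type and 8.43, 8.39 and 8.38 in knockout tumours. The 3 knockout values lay close together and below the highest wild type value, and the log2 difference was 0.22 (SE 0.15, 95% interval -0.12 to 0.56, limma adjusted p = 0.561). Airn, the imprinted antisense RNA of the Igf2r locus, was looked up after these values were seen. It had levels of 6.95, 7.61 and 7.15 in wild type and 7.74, 7.67 and 7.62 in knockout tumours, with a log2 difference of 0.44 (SE 0.16, adjusted p = 0.303). Replicate 2 of the wild type group was the highest of its group for both Igf2r and Airn. Whether the arrays keep the strands of this overlapping pair apart is not stated in the labels.

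The binding proteins showed no difference beyond the spread between tumours. Igfbp2 had levels of 9.12, 8.85 and 9.16 in wild type and 9.13, 9.26 and 9.09 in knockout tumours, with a log2 difference of 0.11 (95% interval -0.15 to 0.38). Igfbp3, the main carrier of IGFs in serum, had levels of 9.40, 9.20 and 9.63 in wild type and 9.21, 9.32 and 9.13 in knockout tumours, with a log2 difference of -0.19 (95% interval -0.48 to 0.10). For Igfbp4 the levels were 8.43, 8.38 and 8.09 in wild type and 7.87, 8.02 and 8.25 in knockout tumours, with a log2 difference of -0.25 (95% interval -0.56 to 0.06). In all of these the groups overlapped, and for Igfbp4 it was 1 knockout tumour, replicate 3, that reached into the wild type range.

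Igfbp5, which lies next to Igfbp2 on chromosome 1, varied most among the members within groups, with a pooled SD of 0.47. Its levels were 8.32, 8.68 and 9.50 in wild type and 9.34, 8.80 and 9.12 in knockout tumours, and the log2 difference of 0.25 had a 95% interval from -0.41 to 0.92. The highest value of all came from wild type replicate 3. That tumour also had the highest mean level of meningeal fibroblast markers (8.60, against 7.97 to 8.24 in the other 5 tumours) and of microglia and macrophage markers (9.19). Within its group it was highest for markers of astrocytes and Bergmann glia (9.96, against 9.31 and 9.25), endothelium and pericytes (7.89), and Purkinje cells and inhibitory neurons (7.68). It was lowest of its group for granule lineage (10.98), choroid plexus and ependymal (7.24) and oligodendrocyte lineage markers (8.57). The part of these lists in the Igfbp5 value was not tested. Without wild type replicate 3 the log2 difference of Igfbp5 was 0.59, and without wild type replicate 1 it was -0.00.

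Irs1, the adaptor that links both receptors to PI3K, was the only member with more than 1 array feature, and its 2 features differed. The brighter feature, which represents the gene here, had levels of 10.77, 11.07 and 10.71 in wild type and 10.95, 10.90 and 10.77 in knockout tumours, with a log2 difference of 0.02 (95% interval -0.25 to 0.30). The dimmer feature had levels of 8.72, 9.15 and 8.51 in wild type and 7.80, 7.55 and 6.98 in knockout tumours. The groups did not overlap in the dimmer feature, and its log2 difference was -1.35 (SE 0.25, 95% interval -1.93 to -0.76), which did not pass over all 41345 features (limma adjusted p = 0.121).

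Within each array the dimmer minus the brighter Irs1 feature was -2.04, -1.92 and -2.21 log2 units in wild type and -3.14, -3.34 and -3.79 in knockout tumours. The groups did not overlap in this within-array difference, which was -2.06 ± 0.14 in wild type and -3.43 ± 0.33 in knockout tumours (SD, n = 3 each), a change of -1.37 with an exact permutation p of 0.1 (two-sided), the smallest possible. The test was chosen after both features were seen. RefSeq places Irs1 on the minus strand of chromosome 1. Of the 20 named features whose identifiers are nearest to that of the brighter feature, 20 belong to minus-strand genes of chromosome 1, while for the dimmer feature 19 of 20 belong to plus-strand genes of that chromosome. The strand and position of the probes themselves are not stated in the labels, and the transcript that the dimmer feature reads is uncertain.

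**Figure D2:**
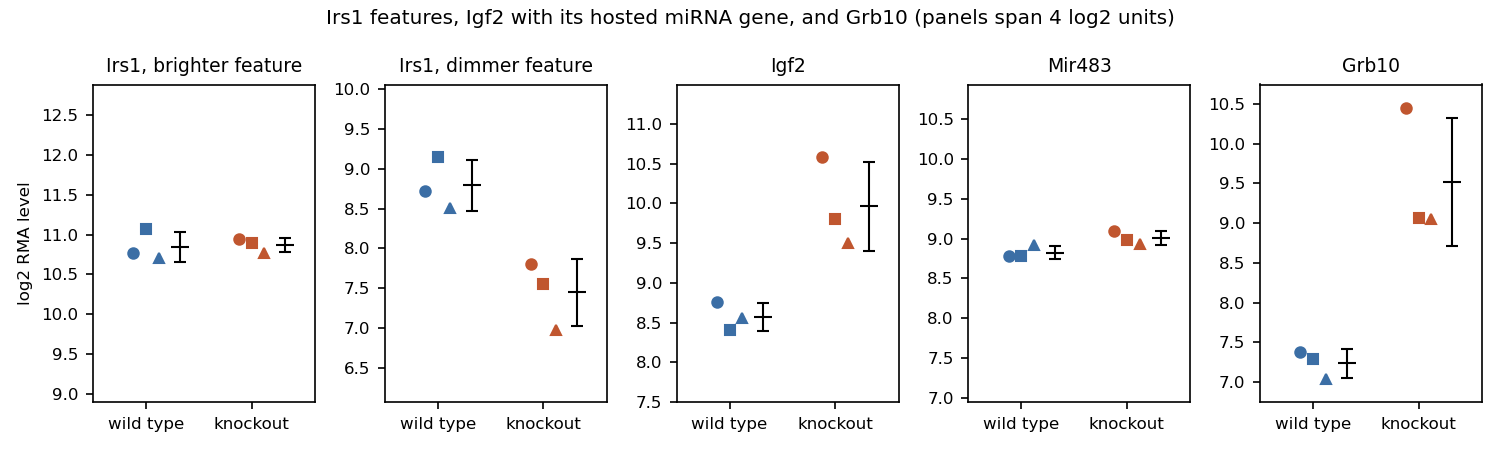
Log2 level (y axis) in each wild type (blue) and knockout (orange) tumour of both Irs1 features, Igf2, the hosted microRNA gene Mir483 and Grb10, with mean ± SD in black and symbols for replicates as circles, squares and triangles. All panels span the same log2 range. The brighter Irs1 feature overlaps between groups while the dimmer one lies lower in all 3 knockout tumours, and Grb10 shows the widest gap, 1.67, between wild type and knockout values.

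Counted together, 0 of the 10 members passed an adjusted p of 0.05 in limma, where 0.207% of all genes passed (46 of 22180). At an unadjusted p under 0.05 the count was 1 of 10, Igf2, against 13.8% of all genes. No overlap between groups was seen in 1 of 10 members, again Igf2, where 19.6% of the genes tested had none, so the members as a group held no more separated genes than the arrays at large. Of the 10, 7 had positive and 3 negative log2 differences, with a median of 0.05 beside 0.00 over all genes. The other 9 members had differences between -0.25 and 0.25, with adjusted p-values from 0.468 to 0.969.

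Igf2 hosts Mir483, which was examined after the Igf2 values were seen. The table of mature microRNAs from RefSeq (GRCm38.p6) gives both arms, shown to identify the hosted product, with the seed (bases 2 to 8) in capitals.
mmu-miR-483-5p: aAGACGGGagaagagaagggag
mmu-miR-483-3p: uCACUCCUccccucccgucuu
The array has 1 feature named Mir483 and does not separate the arms. Whether it reads the mature arms or only longer RNA of the locus is not stated in the labels, so its values are not taken as levels of the mature microRNA. Its levels were 8.78, 8.78 and 8.92 in wild type and 9.10, 8.98 and 8.93 in knockout tumours, with a log2 difference of 0.18 (SE 0.09, 95% interval -0.04 to 0.40, limma adjusted p = 0.452). The groups were separated only narrowly, by wild type replicate 3 at 8.92 and knockout replicate 3 at 8.93. The upper bound of 0.40 lay below the lower bound of 0.79 for Igf2, and the difference between the 2 genes was not tested itself.

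Among neighbours of Igf2, the insulin gene Ins2 had levels of 5.14, 5.20 and 5.10 in wild type and 4.92, 4.83 and 4.96 in knockout tumours, all within the range of absent transcripts. H19, the imprinted RNA on the other side of Igf2, was not analysed here. Of 11 measured imprinted growth genes 1 passed the threshold, Plagl1, which encodes a zinc finger factor and was already known from earlier results of these data. Plagl1 rose from 6.95, 6.86 and 6.91 in wild type to 8.11, 7.95 and 8.11 in knockout tumours, by 1.15 on the log2 scale (SE 0.09, limma adjusted p = 0.00531). Its other feature read 3.15 to 4.42, below the highest value of absent transcripts, in all 6 tumours, and with the mean of both features Plagl1 did not pass (0.58, adjusted p = 0.173), and it did not without knockout replicate 3 (1.13, adjusted p = 0.0638), while without each of the other 5 arrays in turn it passed.

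The other genes of the IGF and insulin family were taken from a list of 24, of which 21 were measured. None of the 21 passed the threshold, and 2 with positive and 3 with negative log2 differences had an unadjusted p under 0.05, where 7.24% and 6.51% of all genes did. Groups were apart in 8 of 21, 2 higher and 6 lower in knockout tumours, against 10.2% and 9.43% of all genes. The median log2 difference was -0.05, and 5 of these 21 genes, on average over all tumours, lay at or below the level of absent transcripts.

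Grb10, which encodes the adaptor that restrains the IGF1 and insulin receptors, had the largest difference of the family. Its levels were 7.38, 7.29 and 7.04 in wild type and 10.45, 9.06 and 9.05 in knockout tumours. All 3 knockout values lay above all wild type values, and knockout replicate 1, the highest for Igf2, was the highest here too. The log2 difference was 2.29 (SE 0.35, 95% interval 1.47 to 3.10), or 4.87-fold (2.77 to 8.57), which ranked 13 of 22180 genes by size. It did not pass over all genes (limma adjusted p = 0.0637). It passed when knockout replicate 1 (log2 difference 1.82, adjusted p = 0.00958) or knockout replicate 2 (2.52, adjusted p = 0.0469) was left out, and without the other arrays in turn its adjusted p ranged from 0.0835 to 0.201.

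Igfbp7, a secreted protein of blood vessels with low affinity for IGFs, had levels of 11.86, 11.14 and 11.26 in wild type and 10.96, 10.86 and 10.56 in knockout tumours. Each knockout value lay under every wild type value, with a log2 difference of -0.63 (SE 0.20, limma adjusted p = 0.241). Without wild type replicate 1, the highest for Igfbp7 and for choroid plexus markers (8.42), the log2 difference was -0.41. Endothelial and pericyte markers had mean levels of 7.77 to 7.89 in wild type and 7.72 to 8.01 in knockout tumours, and the groups overlapped. The part of either list in the Igfbp7 values was not tested.

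**Figure D3:**
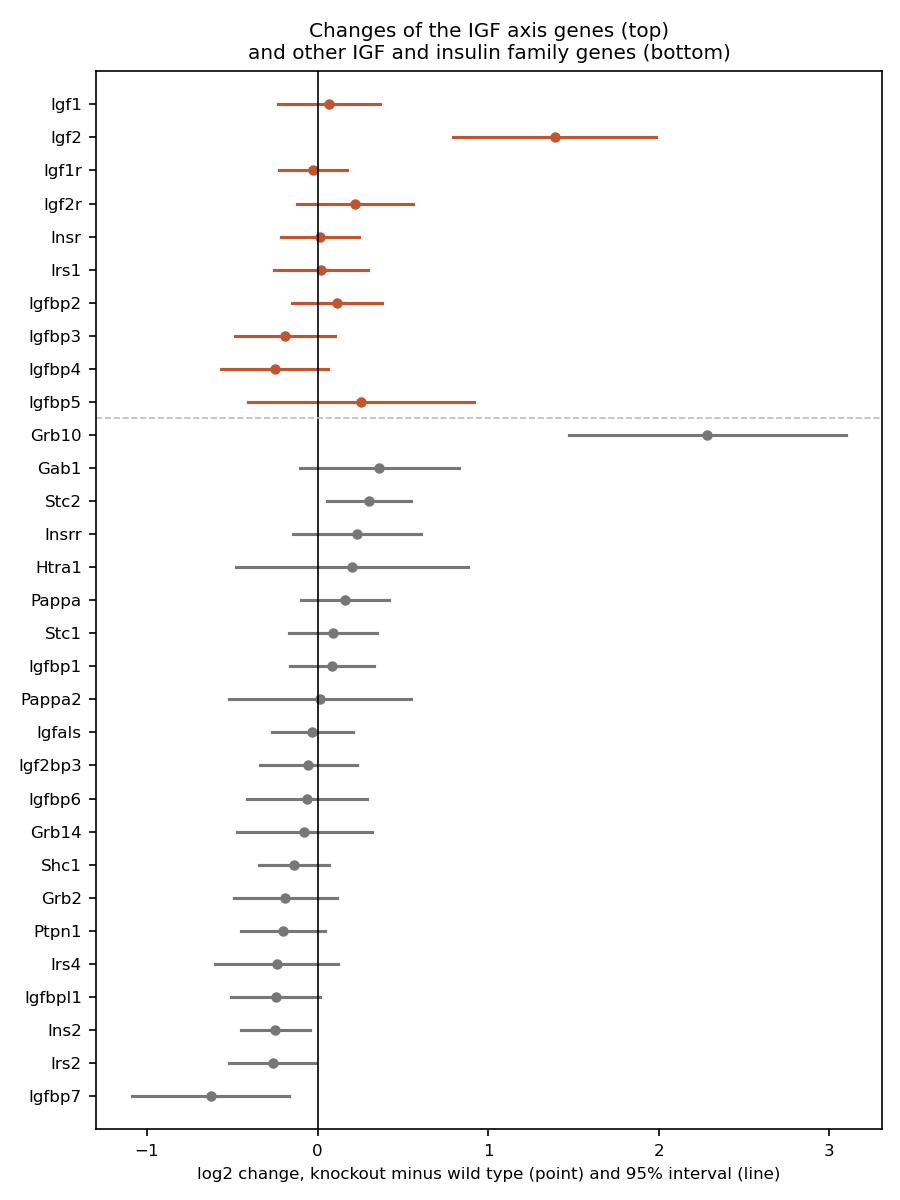
Log2 difference, knockout minus wild type (x axis, points), with its 95% interval from limma (lines, not adjusted for the number of genes), for the 10 IGF axis genes (orange, top) and 21 other genes of the IGF and insulin family (grey, bottom). Igf2 at 1.39 and Grb10 at 2.29 lie far to the right of 0, while the other 9 IGF axis genes lie between -0.25 and 0.25 with intervals that include 0.

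Below the receptors, 26 of 30 listed genes of PI3K, AKT and mTOR signalling were measured. None passed the threshold, and in limma 1 with a positive and 3 with a negative log2 difference had an unadjusted p under 0.05, against 7.24% and 6.51% of all genes. In 8 of them no value of one genotype lay within the range of the other, 4 in each direction, and the shares over the whole array were 10.2% higher and 9.43% lower. The median log2 difference was -0.01. Foxo6, which encodes a FOXO transcription factor, had levels of 8.16, 8.53 and 8.09 in wild type and 7.52, 7.59 and 7.46 in knockout tumours (log2 difference -0.73, SE 0.13, adjusted p = 0.0948). Akt1, the kinase itself, had levels of 11.13, 11.10 and 10.93 in wild type and 10.53, 10.70 and 10.45 in knockout tumours (log2 difference -0.50, SE 0.11, adjusted p = 0.138). For both genes all knockout tumours lay below all wild type tumours.

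The lipid phosphatase Inpp5d, a gene of blood and microglial cells, had levels of 7.85, 7.82 and 7.68 in wild type and 7.36, 7.57 and 7.00 in knockout tumours (log2 difference -0.47, SE 0.15, limma adjusted p = 0.238). Microglia and macrophage markers were also lower on average, with mean levels of 9.01 to 9.19 in wild type and 8.76 to 8.97 in knockout tumours. Of these markers 12 of 13 were negative and none passed the threshold. An unadjusted limma p under 0.05 was seen in 7 of 13, all lower in knockout tumours, against 6.51% of all genes lower. The part of these markers in the Inpp5d values was not tested. In whole tumour RNA, fewer cells of a type and less RNA per cell cannot be told apart.

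FOXO target genes, which are switched on when AKT signalling is low, gave 13 measured of 14, with 6 positive and 7 negative log2 differences and a median of -0.06. None passed the threshold, and 4 had an unadjusted limma p under 0.05, 2 in each direction, against 7.24% of all genes up and 6.51% down. Fbxo32, which encodes a ubiquitin ligase of muscle atrophy, had levels of 9.74, 9.90 and 9.78 in wild type and 9.40, 9.55 and 9.40 in knockout tumours. The transcriptional repressor Bcl6 had levels of 6.89, 6.80 and 7.40 in wild type and 8.36, 7.48 and 7.67 in knockout tumours. The peroxide-degrading enzyme Cat had levels of 11.28, 11.19 and 11.41 in wild type and 11.55, 11.53 and 11.49 in knockout tumours. Their groups did not overlap, with log2 differences of -0.36, 0.81 and 0.24 and adjusted p-values of 0.184, 0.236 and 0.324. These 3 genes were named for the smallest p in the list. Groups were apart in 5 of the 13 measured, 2 higher and 3 lower in knockout tumours, against 10.2% and 9.43% of all genes.

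Igf2 is made in the meninges, the choroid plexus and vessel walls as well as in tumour cells, so marker lists of these sources were read beside it. Meningeal fibroblast markers had mean levels of 8.19, 7.97 and 8.60 in wild type and 8.24, 8.10 and 8.11 in knockout tumours, with 8 of 14 positive and 0 past the threshold. The brightest of them was Pdgfra (11.43 to 12.19), which also marks oligodendrocyte precursors, so the list does not read fibroblasts alone. In this list 4 had an unadjusted limma p under 0.05, Lum higher and Pdgfra, Foxc1 and Aldh1a2 lower in knockout tumours. Of all genes, beside which this and the next lists are to be read, 13.8% had such a p, 7.24% higher and 6.51% lower in knockout tumours. Choroid plexus and ependymal markers had mean levels of 8.42, 7.50 and 7.24 in wild type and 7.38, 7.20 and 7.31 in knockout tumours, with 3 of 10 positive, 0 past the threshold and 2 at an unadjusted limma p under 0.05. The median log2 difference was 0.06 over the meningeal and -0.24 over the choroid plexus markers. Single wild type tumours had the highest mean of all 6 in both lists, but single markers differed. Dcn, Pdgfra, Aldh1a2, Slc6a13, Slc22a6 and Islr were highest in wild type replicate 3. Col1a1 (8.37), Col1a2 (8.05), Col3a1 (9.08) and Bgn (10.07) were highest in knockout replicate 1, the tumour highest for Igf2. Ttr (13.52), Kl, Folr1, Clic6, Aqp1, Slc4a5 and Foxj1 were highest in wild type replicate 1, and Otx2 and Tmem212 in knockout replicate 1. Of the endothelial and pericyte markers 8 of 16 were positive, 0 passed the threshold and 6 had an unadjusted limma p under 0.05, 3 in each direction, and knockout replicate 1, the tumour highest for Igf2, had the highest mean level, 8.01. All meningeal and vascular markers lay above the level of absent transcripts, as did 9 of 10 choroid plexus and ependymal markers.

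Other lists with higher means in the knockout tumours were those of astrocytes and Bergmann glia (mean levels 9.25 to 9.96 in wild type and 9.79 to 9.96 in knockout tumours, 10 of 13 positive) and of Purkinje cells and inhibitory neurons (7.09 to 7.68 and 7.60 to 8.26, 9 of 10 positive). The groups overlapped in both lists and 0 markers passed the threshold. An unadjusted limma p under 0.05 was seen in 3 of 13 (all higher) and 8 of 10 (7 higher and 1 lower), against 13.8% of all genes. Granule lineage markers were lower, with 11 of 13 negative and no overlap between groups in their mean level. Again 0 passed, while 10 of 13 (9 lower and 1 higher) had an unadjusted limma p under 0.05. Oligodendrocyte lineage markers overlapped between the groups (8.57 to 9.23 and 8.62 to 8.96). The part of these lists in the Igf2 values was not tested.

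**Figure D4:**
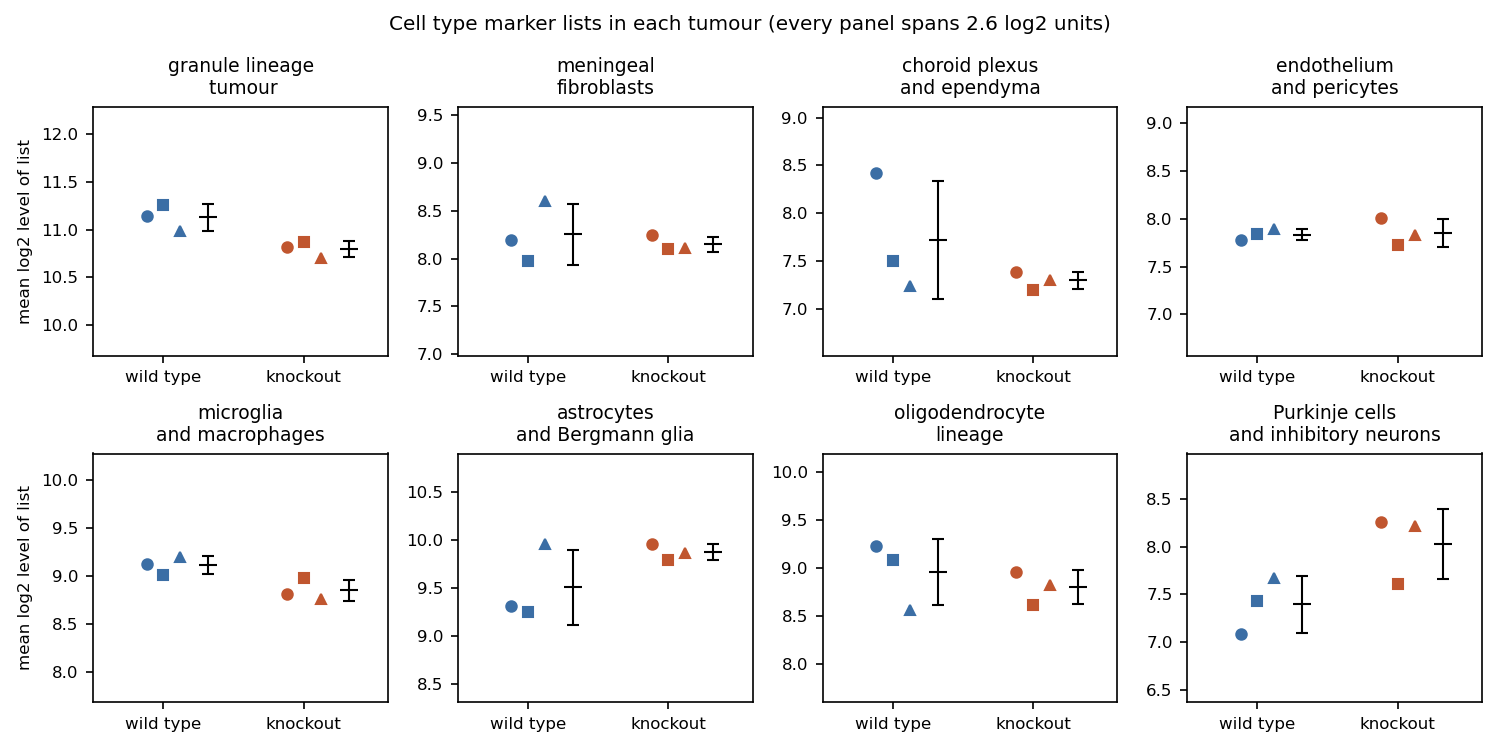
Mean log2 level over each cell type marker list (y axis) in every wild type (blue) and knockout (orange) tumour, with mean ± SD in black and symbols for replicates as circles, squares and triangles. Mean levels of meningeal markers reach 8.60 and of choroid plexus markers 8.42 in single wild type tumours, while no knockout tumour exceeds 8.24 and 7.38. Single markers went in both directions, with positive log2 differences in 8 of 14 meningeal and 3 of 10 choroid plexus and ependymal markers.

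The 5 genes whose profile over the 6 tumours was nearest to that of Igf2, by root mean square difference of mean-centred log2 values, were Tuba1c (0.20), Zfp984 (0.26), Gli3 (0.27), Ttc23 (0.27) and Rpl32l (0.27). The tubulin gene Tuba1c had levels of 7.76, 7.13 and 7.30 in wild type and 9.08, 8.87 and 8.14 in knockout tumours, in the same order of tumours within the knockout group as Igf2. Gli3, the transcription factor of the hedgehog pathway, rose from 6.08, 6.39 and 6.37 to 8.27, 7.46 and 7.68, and knockout replicate 1 was the highest there too. Gli3, Ttc23 and Rpl32l passed the threshold over all genes (log2 differences of 1.53, 1.36 and 1.10, limma adjusted p = 0.042, 0.0121 and 0.0476), although Rpl32l lay below the level of absent transcripts in every tumour. Tuba1c and Zfp984 did not pass (1.30 and 1.09, adjusted p = 0.121 and 0.19). These genes were chosen for their likeness to Igf2, and their differences are not separate support for it. Gli3 and Rpl32l no longer passed when any single array other than knockout replicate 2 was left out (adjusted p from 0.055 to 0.153 and from 0.0663 to 0.175), and Ttc23 did not without wild type replicate 1 (0.0738) or knockout replicate 3 (0.0638).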

How the data were processed

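The authors deposited log2 expression values per array feature, for which the submitters' processing notes name RMA and oligo without versions or a genome build. RMA subtracts background, gives all arrays 1 distribution and combines the probes of a feature, which compresses differences of dim features and removes shifts shared by most genes. Array medians ran from 6.91 to 7.00, no detection calls were used, and the number of arrays sets the precision. Of 41345 features, 23521 had 1 symbol in the platform annotation, 1814 several and 16010 none, and 99.2% of those with 1 symbol matched a RefSeq gene identifier.

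Groups came from sample titles. The fit used lmFit and eBayes of limma 3.58.1 (R 4.3.3), two-sided, with Benjamini-Hochberg adjustment over 22180 genes and a threshold of 0.05, with exact permutation tests over the 6 arrays for single genes. The fit was tested on simulated data. The members and lists were chosen with earlier results of these data known. Named were the members, listed family, signalling, FOXO target and imprinted genes past the threshold or else the 3 with the smallest p per list, Crebbp, Ins2, H19 and the 5 genes nearest to Igf2. Airn, Mir483 and the dimmer Irs1 feature were added after their values were seen. Promoter and microRNA sequences are from RefSeq (GRCm38.p6), which was also used for chromosomes, gene neighbours and strand.

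Replicate numbers were checked for pairing by correlating, across genes, the deviations of same-numbered arrays from their group means.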

Additional observations from a re-analysis of the deposited data

How the results depend on the processing

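Across 11 other settings for the array values and the model, the looser threshold of adjusted p under 0.10, and leaving out each array in turn, 0 of the 10 IGF axis genes passed in limma. Igf2 kept its direction in all 17 of these fits, with log2 differences from 1.08 (without knockout replicate 1) to 1.62 and adjusted p-values from 0.0582 to 0.292. The count over all genes, 46, was 77 without the dimmest 25% of genes, 107 with an intensity trend, 22 over every feature, 131 at the looser threshold and 4 to 128 without 1 array (4 for knockout replicate 3, 12 for wild type 1, 15 for knockout 1, 18 for wild type 2, 99 for wild type 3 and 128 for knockout 2). With a replicate block it was 12. Same-numbered arrays correlated at -0.03, 0.05 and 0.10 in their deviations, so the numbers were not taken as pairs. No IGF axis gene was called in the main fit, so the block had no such call to end. The block ended the calls of Gli3 and Ttc23 (limma adjusted p = 0.124 and 0.0683). Over every feature Gli3 (0.0831) and Rpl32l (0.0866) did not pass, nor did Rpl32l after quantile normalization (0.0688) or with robust eBayes (0.0502). The family list count, 0, was 1 (Grb10) with a trend (adjusted p = 0.0338) and without the dimmest 25% (0.04995), and 0 to 1 without 1 array, while the count for PI3K, AKT and mTOR signalling stayed at 0.

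Differences near 0 turned sign. Igf1r was 0.034 after quantile normalization, Insr -0.015 after median centring and -0.00050 with array weights, and Irs1 -0.0062 after median centring. With the mean of its features Irs1 was -0.66 (adjusted p = 0.172), since the dimmer feature then counts. Without 1 array Igf1 ranged from -0.051 to 0.14, Insr from -0.046 to 0.062, Irs1 from -0.046 to 0.13 and Igfbp5 from -0.0029 to 0.59. The dimmer Irs1 feature ranged from -1.53 to -1.11 and did not pass in any of these, nor over features with 1 symbol (adjusted p = 0.076), an alternative chosen after seeing the data, as was leaving out genes on X and Y, which changed the call of Rpl32l alone among named genes (0.0518). Crebbp passed with a trend (0.0263) and when the dimmest 50% of genes were left out (0.0486). Dim features, as of Ins2, limit what small differences can show.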
